A study of Mus musculus with 2 samples.

Results

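The 8 genes described here are those of the liver X receptors and of cholesterol supply: Nr1h2 and Nr1h3, which encode the receptors, Srebf1 and Srebf2, which encode the sterol-responsive transcription factors SREBP-1 and SREBP-2, Insig1, which encodes the protein that holds the SREBPs back, Hmgcs1 and Sqle, which encode enzymes of cholesterol synthesis, and Abca1, which encodes a cholesterol exporter. They were listed by name, and a gene was called marked when a peak of H3K4me3 overlapped the RefSeq gene or the 1 kb on either side of it. H3K4me3 is trimethylated histone H3, a mark found over the starts of active and poised genes, and a peak is a stretch where the pulled-down DNA exceeds the input DNA. The cells were mouse neural progenitor cells from adult animals, kept in N2 medium with EGF and bFGF and given no further treatment. The sample label calls the library "con" whereas the header of its peak list names EGF; what either name stands for, the strain and the age are not given in the sources used here. The files hold peaks of 1 H3K4me3 library set against 1 input library, with no replicates, so all values below describe 1 culture, carry no error between cultures, and allow no test between conditions. The H3K4me3 library held 18156769 tags (sequenced reads) after filtering and the input 17831241. All 8 genes were marked, by 12 of the 19265 peaks in the authors' list.

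Liver X receptors are nuclear receptors that bind oxysterols, the oxidised forms of cholesterol, and pair with retinoid X receptors on DNA. When sterol is plentiful they raise genes of cholesterol export such as Abca1, and also Srebf1. When sterol is scarce, SREBP-2 is released from the endoplasmic reticulum, where Insig proteins retain it, and raises genes of cholesterol synthesis and uptake such as Hmgcs1 and Sqle. Neural cells make most of their own cholesterol, since the blood-brain barrier keeps lipoproteins out.

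The stretches before the annotated starts show where the marked genes differ in sequence. Each line gives the 250 bases before a RefSeq start on GRCm38.p6, the assembly that mm10 names, read towards the gene. Capitals mark 3 kinds of short motif, on either strand. These are TCACCCCA, the core of a sterol regulatory element, to which SREBPs bind; GGTTACNNNNGGTCA, a form of the repeat to which liver X receptors bind; and CCGGAAGT, to which ETS factors bind. The first 2 sequences are shown because one receptor start was marked and the other was not, and the next 4 because each holds a motif of the pathway.
Nr1h2, chr7:44553966-44554215, minus strand: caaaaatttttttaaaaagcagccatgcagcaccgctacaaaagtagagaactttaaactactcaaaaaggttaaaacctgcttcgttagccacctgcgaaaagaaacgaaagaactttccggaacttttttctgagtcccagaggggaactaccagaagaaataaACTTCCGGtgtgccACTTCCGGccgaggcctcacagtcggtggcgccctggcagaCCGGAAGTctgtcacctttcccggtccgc
Nr1h3, first start, chr2:91195117-91195366, minus strand: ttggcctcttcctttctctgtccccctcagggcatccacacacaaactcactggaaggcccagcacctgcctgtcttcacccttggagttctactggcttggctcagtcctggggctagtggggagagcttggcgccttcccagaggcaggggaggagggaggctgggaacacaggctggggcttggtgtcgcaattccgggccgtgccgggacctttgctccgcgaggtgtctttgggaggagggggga
Srebf1, downstream start, chr11:60210472-60210721, minus strand: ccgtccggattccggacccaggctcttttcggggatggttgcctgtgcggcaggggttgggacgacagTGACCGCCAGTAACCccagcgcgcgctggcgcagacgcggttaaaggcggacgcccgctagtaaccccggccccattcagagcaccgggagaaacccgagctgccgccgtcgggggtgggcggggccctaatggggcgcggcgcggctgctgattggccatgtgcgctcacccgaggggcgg
Abca1, chr4:53159896-53160145, minus strand: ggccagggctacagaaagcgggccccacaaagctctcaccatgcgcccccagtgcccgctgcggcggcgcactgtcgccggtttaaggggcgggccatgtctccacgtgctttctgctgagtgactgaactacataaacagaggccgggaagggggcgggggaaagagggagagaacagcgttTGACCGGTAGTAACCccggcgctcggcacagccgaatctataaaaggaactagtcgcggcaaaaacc
Srebf2, chr15:82147019-82147268, plus strand: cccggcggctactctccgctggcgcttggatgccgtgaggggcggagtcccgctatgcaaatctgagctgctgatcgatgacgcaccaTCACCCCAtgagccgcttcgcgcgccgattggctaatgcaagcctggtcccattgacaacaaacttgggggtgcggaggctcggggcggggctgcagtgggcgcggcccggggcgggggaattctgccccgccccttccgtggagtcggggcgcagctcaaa
Hmgcs1, chr13:119690101-119690350, plus strand: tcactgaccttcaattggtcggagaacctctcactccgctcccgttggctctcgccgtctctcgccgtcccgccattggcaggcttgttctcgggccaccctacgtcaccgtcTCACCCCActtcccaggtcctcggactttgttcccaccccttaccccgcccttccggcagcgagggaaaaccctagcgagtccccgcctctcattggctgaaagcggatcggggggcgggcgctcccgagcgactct

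All 8 genes had a peak, against 61.5% of the 21887 protein-coding genes on the assembled chromosomes (13462 genes). The 8 genes were picked by name with earlier results known, so nothing is read from this difference. Of the members, 7 had a peak that lay over no other coding gene, against 46.4% of coding genes, and the exception was Nr1h3. The reference table lists a start for 7 of the 8 genes, all but Sqle, and 6 of these 7 had a peak within 1 kb of a start, against 58.0% of the 17492 coding genes with a listed start. The exception was again Nr1h3. These genes list 10 starts in all, of which 7 lay inside a peak, against 55.3% of 21263 starts. The 3 outside were the pair of Nr1h3 starts and the most upstream start of Srebf1.

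**Figure D1:**
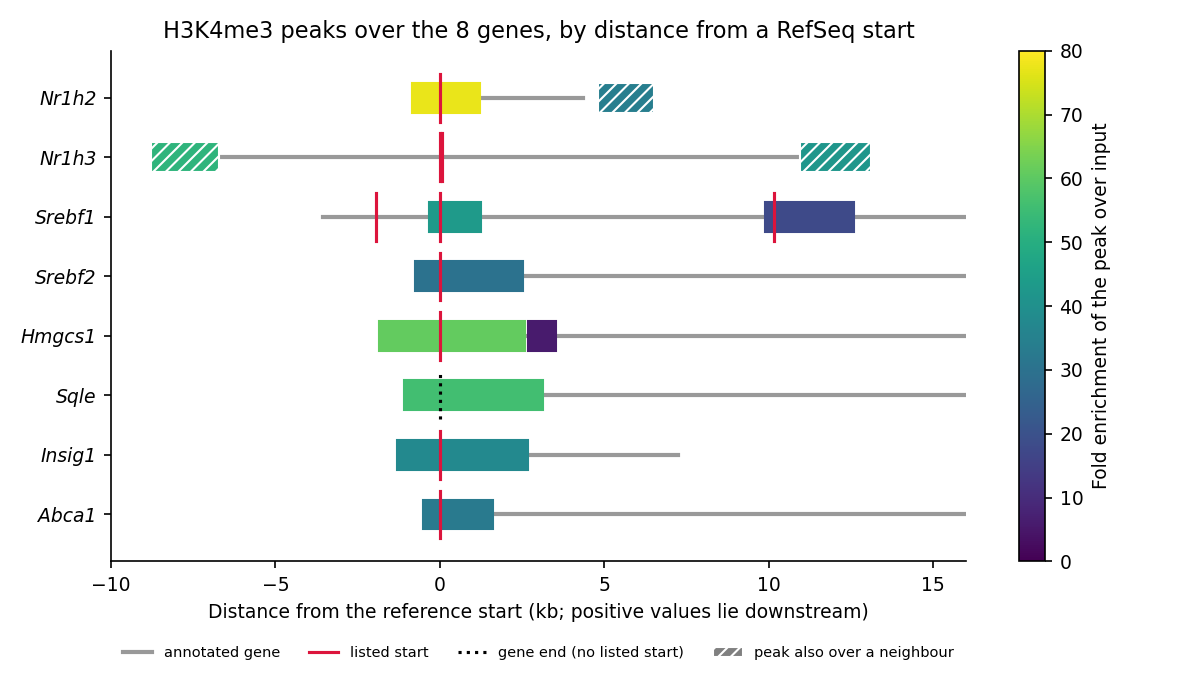
Peaks over the 8 genes, as bars placed by distance in kb from a listed start (red line; for Srebf1 the middle start, for Nr1h3 the first, and for Sqle the gene end at the lower coordinate, since no start is listed). Bar colour gives the fold enrichment over input, hatching marks peaks that also lie over a neighbouring coding gene, and grey lines show the annotated genes, cut at the edge of the plot. In 6 of the genes there is a peak across a red start line, and both Nr1h3 starts lie between 2 hatched peaks.

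The receptor genes stood at opposite ends of this pattern. Nr1h2, which encodes liver X receptor beta, the form found in most tissues, had a peak of 2.07 kb across its start (chromosome 7, 44552738 to 44554809). It held 396 tags (exact 95% Poisson interval 358 to 437) and had a fold enrichment of 77.4, the highest of all 19265 peaks; the next, at Anp32e, had 73.8. Its summit lay 185 bp after the start, inside the gene. By tags per kb (191, interval 173 to 211) it ranked lower, above 87.8% of marked coding genes, and its width was above only 42.1% of them. Fold enrichment is the caller's height of the peak over the local input, so these are different properties of 1 peak, which was compact and tall. A further peak with a fold of 33.9 and 245 tags touched the 1 kb beyond the other end of Nr1h2, but covered the start of the neighbour Pold1, a DNA polymerase gene, with its summit 198 bp after that start.

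Nr1h3, which encodes liver X receptor alpha, the form known from liver, fat and macrophages, was marked by the rule but not at its own listed starts. Its starts lie 81 bp apart, and the nearest peak lay 6.72 kb from the first and 6.81 kb from the second. That peak (chromosome 2, 91201840 to 91203898, 385 tags, fold 52.0) lay at the upper end of the gene record, where it covered the start of the divergent neighbour Acp2, a lysosomal phosphatase gene. Its summit lay inside the Nr1h3 record, at position -378 from the Acp2 start. The other peak (91182006 to 91184165, 330 tags, fold 41.95) lay at the lower end and covered a start of Madd, a gene of MAP kinase signalling, with its summit 246 bp after it. Nr1h3 lies on the minus strand, so the upper end of its record is the upstream end, 7.71 kb from the nearer listed start. That end lies under the same peak as the Acp2 start, so this peak cannot be assigned to either gene alone. A peak over the gene with no peak at any listed start was uncommon, at 6.06% of 10800 marked coding genes with a listed start. A site under the caller's p cutoff is not listed, so H3K4me3 below that cutoff at the Nr1h3 starts cannot be seen here. The listed peak with the fewest tags had 13.

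The SREBP genes were each marked at a start, in different shapes. Srebf1 has 3 listed starts, from which the proteins known as SREBP-1a and SREBP-1c are made; the table does not say which start gives which. The middle start lay in a peak of 1594 bp with 224 tags (interval 196 to 255) and a fold of 43.4. The downstream start, 10.2 kb away, lay in a peak of 2694 bp with 283 tags (interval 251 to 318) and a fold of 17.8. Per kb the middle peak held 140.5 tags (interval 123 to 160) and the downstream one 105 (interval 93.2 to 118). These intervals do not overlap, but they cover counting error only and take the peak lengths set by the caller as given. The downstream peak, whose window holds the liver X receptor motif, was thus the lower and longer of the 2, and its fold was above that of only 28.7% of the 15841 peaks over coding genes. The upstream start lay 1.63 kb outside the nearest peak.

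Srebf2 had 1 peak of 3306 bp with 600 tags (interval 553 to 650) across its start (chromosome 15, 82146502 to 82149807). Its fold of 30.2 was the lowest among the highest folds of the 8 genes and exceeded that of only 26.4% of marked coding genes. Its tags per kb (181, interval 167 to 197) exceeded those of 80.4% of them and its width 83.1%. The summit lay 955 bp after the start. Insig1, whose product is the SREBP-retaining partner of SCAP, had the same combination: 3981 bp, 738 tags (interval 686 to 793), and a fold of 37.7, above 45.6% of marked coding genes, with 185 tags per kb, above 83.75%. Its summit lay 928 bp after the start. Over 5843 coding genes with 1 listed start and an unshared peak there, the summit lay a median of 230 bp after the start (quartiles 135 and 378), nearer than in Srebf2 and Insig1 or before the start in 97.6% and 97.4% of them. Both genes thus had peaks that were wide and rich in tags, with a summit far into the gene and a middling to low fold.

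Srebf2 also hosts Mir33, whose microRNA is known to repress Abca1. The hairpin lies 50.85 kb from the Srebf2 start (chromosome 15, 82198122 to 82198190), 13.3 kb from the nearest peak, so no H3K4me3 peak was listed at the microRNA itself. Its main mature form is shown, with the seed (bases 2 to 8) in capitals, since it links these 2 members.
mmu-miR-33-5p: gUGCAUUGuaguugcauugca

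Hmgcs1 and Sqle, the enzyme genes among the members, had wide peaks of high fold. Hmgcs1 encodes the cytosolic synthase that makes HMG-CoA. It had a peak of 4435 bp with 696 tags (interval 645 to 750) and a fold of 60.9, above 98.96% of marked coding genes, with its summit 361 bp after the start. By tags per kb (157) it stood above only 56.1% of them. A second, weak peak of 848 bp with 36 tags (interval 25.2 to 49.8) and a fold of 5.91 followed after 84 bp; joined, they span 5367 bp, wider than at 96.7% of marked coding genes. Sqle encodes squalene epoxidase, a rate-limiting enzyme of the later steps. Its peak of 4249 bp held 802 tags (interval 747 to 860), the most of the 12 peaks, with a fold of 55.7. It ran from 1097 bp before the gene end at the lower coordinate to 3151 bp inside the gene, with the summit 310 bp inside. Sqle stood high on each scale, above 95.7% of marked coding genes by fold, 92.5% by width, 92.3% by summed tags and 86.2% by tags per kb.

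Abca1 encodes the transporter that loads cholesterol onto apolipoproteins. Its gene spans 129 kb and had 1 peak, at the start (chromosome 4, 53158269 to 53160392), of 2124 bp with 331 tags (interval 296 to 369) and a fold of 32.6. Abca1 stood above 32.3% of marked coding genes by fold, 44.7% by width, 45.0% by summed tags and 55.0% by tags per kb. The summit lay 142 bp after the start.

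**Figure D2:**
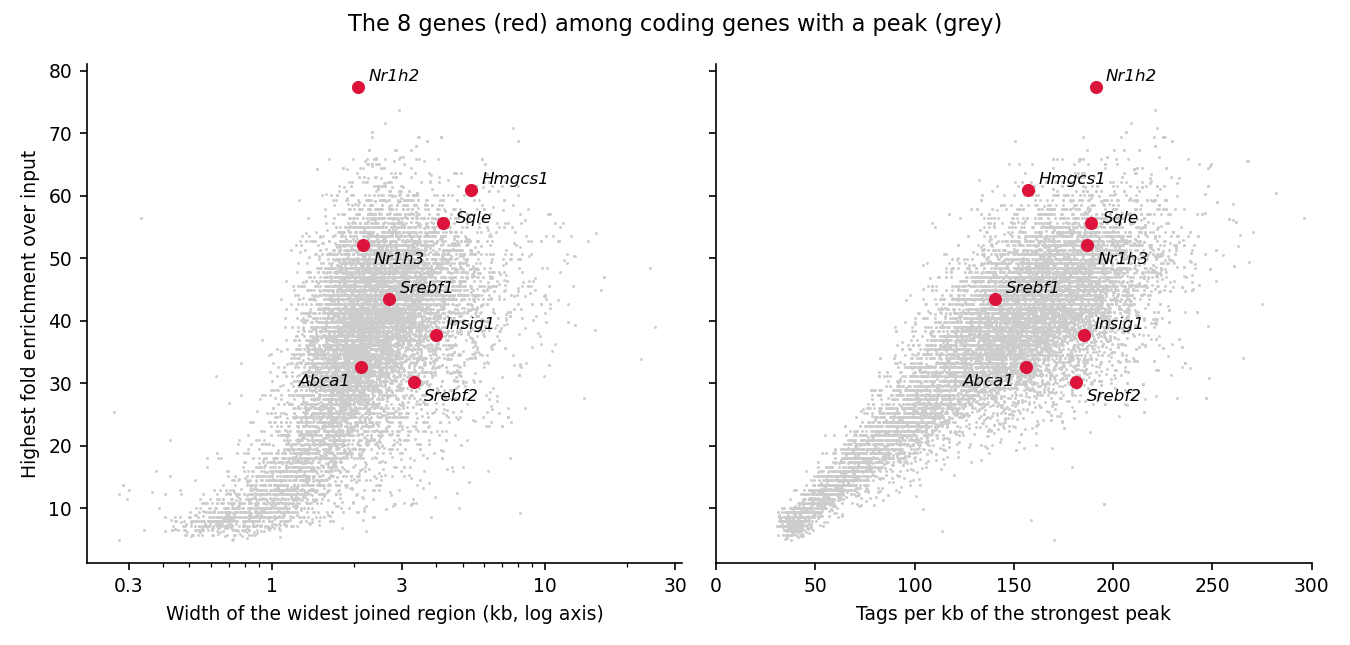
Highest fold enrichment over input (vertical axis) of each coding gene with a peak, against the width of its widest joined region in kb on a log axis (left) and against the tags per kb of its strongest peak (right). Red points are the 8 genes and grey points the other marked coding genes. Nr1h2 sits at the top at 77.4 with a width of only 2.07 kb, and Srebf2 (30.2) and Insig1 (37.7) sit low in fold for their tags per kb.

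Set side by side, the widest joined regions of the 8 genes ran from 2072 bp at Nr1h2 through 2124 bp at Abca1, 2160 bp at Nr1h3, 2694 bp at Srebf1, 3306 bp at Srebf2, 3981 bp at Insig1 and 4249 bp at Sqle to 5367 bp at Hmgcs1. The median over marked coding genes was 2241 bp, with an upper quartile of 2917 bp. The widest 4 were thus Srebf2, its target enzymes Hmgcs1 and Sqle, and its brake Insig1, and each exceeded that quartile. These 4 do not stand for their pathway. The 20 synthesis enzymes listed below had a median of 2588 bp and the 10 sterol sensing genes 2789 bp, both under that quartile. The marked genes of efflux and other liver X receptor targets had a median of 2241 bp. Nr1h2 and the exporter Abca1 lay below the median of marked coding genes. So did Nr1h3, but its width is that of the peak over the Madd start and does not describe its own listed starts. The fold of 52.0 given for Nr1h3 below is that of the peak over both the Acp2 start and the upstream end of the Nr1h3 record. By fold the order was different, from 30.2 at Srebf2, 32.6 at Abca1, 37.7 at Insig1 and 43.4 at Srebf1 to 52.0 at Nr1h3, 55.7 at Sqle, 60.9 at Hmgcs1 and 77.4 at Nr1h2, with a median of 39.1 and quartiles of 29.2 and 46.3 over marked coding genes. With 1 library, neighbours in either order cannot be said to differ. Of the 12 peaks, 5 had the same score of 3100, as did 20.4% of all peaks, so the score does not rank them.

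The sequences above were searched over the whole promoter window, 250 bases before to 50 after each start, on both strands. The sterol regulatory core was found in Hmgcs1, at positions -137 to -130 from the start, and in Srebf2, at -162 to -155, both in the sense direction, against 1.42% of the 21263 coding starts, with 1.28% of those inside a peak and 1.59% of those outside. Hmgcs1 was the only 1 of the 15 synthesis enzymes with a listed start to hold it, and Srebf2 the only 1 of 8 genes of sterol sensing. The liver X receptor motif was found at the downstream start of Srebf1, at -182 to -168, and in Abca1, at -67 to -53, both on the opposite strand. Only 8 of the 21263 starts, or 0.0376%, held it. The form of this motif was written with these 2 promoters in view, so its presence there is no finding, while its rarity elsewhere is a count. The ETS motif was found 5 times at Nr1h2, 3 times in the stretch shown and 2 times after the start, where the 2 matches overlap by 4 bases. It occurred at least 1 time at 5.15% of starts, at 8.59% of those inside a peak and at 0.883% of those outside, and no other coding start held more than 3. A match of letters is a description, and no binding was measured here.

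The starts inside peaks were mostly rich in CpG, the dinucleotide that marks CpG islands. Over all coding starts the ratio of observed to expected CpG had a median of 0.792 inside peaks (quartiles 0.634 and 0.927, n = 11753) and of 0.211 outside them (quartiles 0.107 and 0.362, n = 9510). Among the 7 marked starts of the 8 genes, Nr1h2 and Insig1 had 0.988, the downstream start of Srebf1 0.976, Abca1 0.888, Srebf2 0.864, Hmgcs1 0.848 and the middle start of Srebf1 0.478. The unmarked Nr1h3 starts had 0.277 and 0.394. The unmarked upstream start of Srebf1 had 0.769, above 96.2% of unmarked starts. Nr1h2 reached its ratio at a GC content of 50.7% and held no GC box (GGGCGG), which 69.3% of starts inside a peak held, whereas the other marked starts of the 8 genes had a GC content of 62.7% to 71.7% and held 2 to 5 GC boxes. A TATA box (TATAAA) was present only at Abca1 among the 10 starts.

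**Figure D3:**
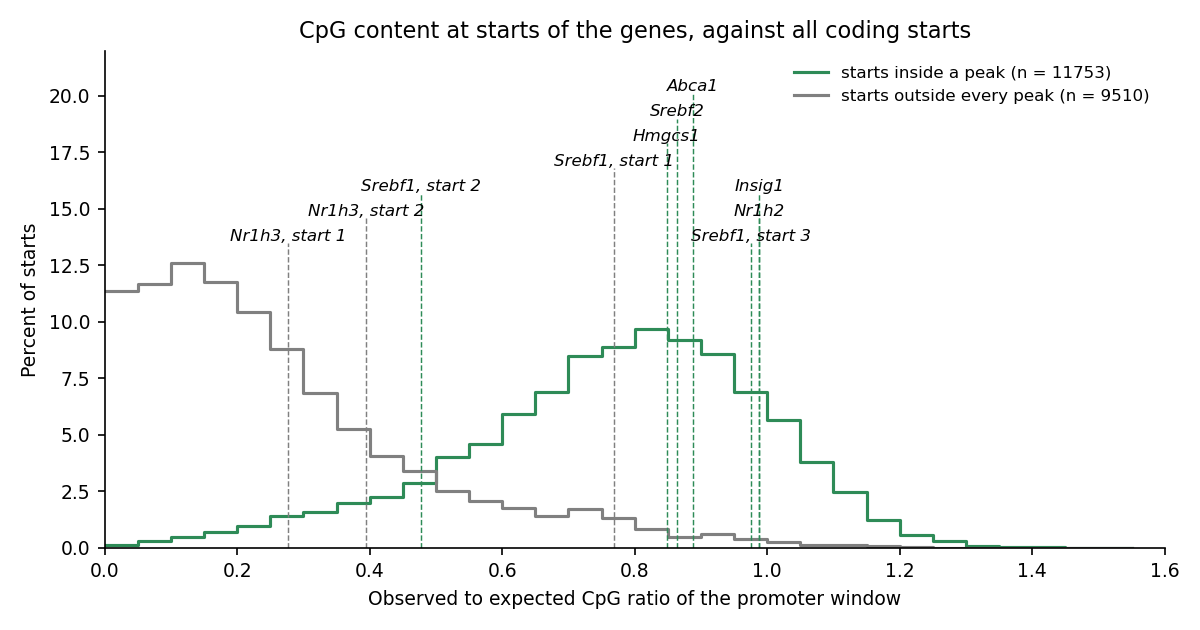
Percent of coding starts (vertical axis) by the observed to expected CpG ratio of the promoter window (horizontal axis, bins of 0.05), for starts inside a peak (green) and outside every peak (grey). Dashed lines mark the 10 starts of the 8 genes in the same colours; the Nr1h3 starts, at 0.277 and 0.394, lie in the range of unmarked starts, and Nr1h2 and Insig1 share the line at 0.988.

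The wider pathway was read from 8 lists of 89 genes in all, of which 77 had a peak, against the 61.5% of coding genes given above. All 20 enzymes of cholesterol synthesis were marked, with folds from 22.4 to 60.9 and a median of 45.3, beside 39.1 over marked coding genes. The highest 2 were the members Hmgcs1 and Sqle. In 16 of the 20 a peak lay over no other coding gene; the lowest fold, at Ebp, which is named after its values were seen, came from a peak shared with Porcn. All 10 genes of sterol sensing and SREBP processing were marked, led by Rnf139, a ubiquitin ligase gene with a peak shared with Tatdn1 (47.7), and Insig2, the paralogue of Insig1 (44.3 over 3634 bp). Their median fold was 39.4.

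Of 10 genes of cholesterol uptake and lysosomal release, 9 were marked, with a median of 42.7. Lrp1, an endocytic lipoprotein receptor, had 52.8 over 8930 bp, and Vldlr, a lipoprotein and reelin receptor, 48.97 over 3281 bp. Of 9 genes of efflux and other liver X receptor targets, Abca1 and Srebf1 among them, 8 were marked, with a median of 40.3. Mylip, a ubiquitin ligase for the low density lipoprotein receptor, had 47.7 and Scd2, a fatty acid desaturase gene of brain, 46.9 over 9182 bp. Abcg1, which encodes an exporter that works beside Abca1, had no listed peak.

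All 10 genes of the receptors, their retinoid X receptor partners and coregulators were marked, with Nr1h2 and Nr1h3 the highest. The Nr1h3 value comes from the peak shared with Acp2, away from the listed Nr1h3 starts. All 6 genes of oxysterol formation and cholesterol esterification were marked too, at a lower median of 29.65 and down to 7.23. Osbp, an oxysterol-binding protein gene, had 47.0 and Soat1, a cholesterol acyltransferase gene, 45.6. The liver and gut genes of the same chemistry stood apart, with 2 of 10 marked. These were Apoa1 (fold 11.3, 58 tags) and Nr1h4, the gene of the bile acid receptor (6.90, 26 tags, away from its listed start). Cyp7a1, the rate-limiting enzyme of bile acid synthesis, and Cyp8b1, Abcg5, Abcg8, Npc1l1, Soat2, Apob and Nr0b2 had none. In nuclear receptor subfamily 1, to which the liver X receptors belong, 17 of 19 were marked, led by Nr1h2 and by Thra, a thyroid hormone receptor gene (56.4 over 5056 bp). The xenobiotic receptor genes Nr1i2 and Nr1i3 had no peak.

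**Figure D4:**
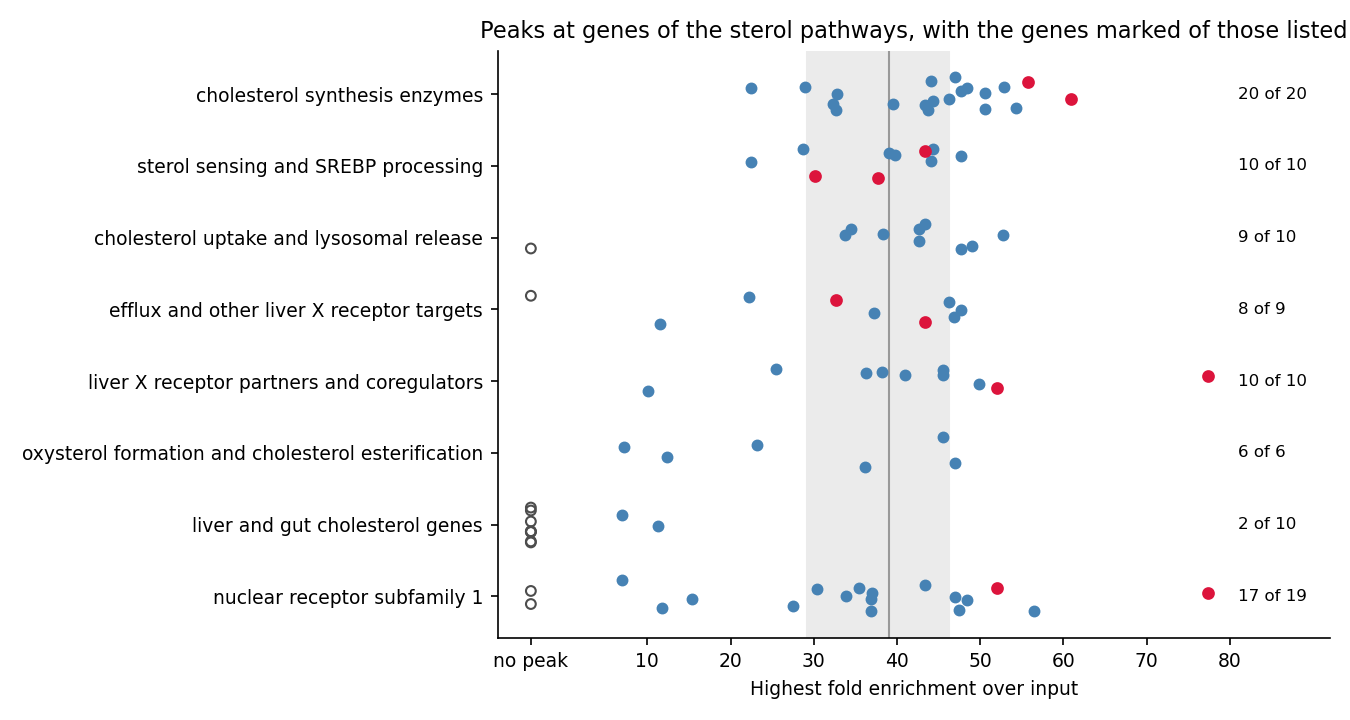
Highest fold enrichment over input (horizontal axis) for each gene of the 8 pathway lists, 1 row per list, with the count of marked genes of those listed at the right. Red points are members, blue points other genes and open circles genes without a listed peak; the grey band and line give the quartiles (29.2 and 46.3) and the median (39.1) of marked coding genes. The 20 synthesis enzymes all carry a peak, and 8 of the 10 liver and gut genes lie in the no-peak column.

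The label of the cells was checked against markers. All 12 neural stem and progenitor markers were marked, with folds from 20.25 to 52.1, Pax6 away from its listed start. The share over all coding genes was 61.5%. Markers of other cells were marked in 3 of 6 for neurons (not Dcx, Rbfox3 or Neurod2), 1 of 5 for astrocytes (not Gfap, Aqp4, Aldh1l1 or S100b), 2 of 5 for the oligodendrocyte lineage (Sox10 and Mog among those without a peak), 1 of 6 for microglia (not Aif1, Itgam, Cx3cr1, Tmem119 or Csf1r), 3 of 6 for endothelial and mural cells (not Cdh5, Pdgfrb or Rgs5) and 1 of 5 for hepatocytes (not Alb, Ttr, Serpina1a or Cyp2e1). Some of these marks were as high as at the progenitor markers, whose median fold was 39.2. Slc1a2 of astrocytes had 38.6, away from its listed start. Pdgfra of the oligodendrocyte lineage had 39.1 over 4960 bp, and Apoa2 of hepatocytes 40.1 in a peak shared with a neighbour. In a bulk library a peak does not tell which cells of the culture carry the mark.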

How the data were processed

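H3K4me3 ChIP-seq peaks of 1 library of mouse neural progenitor cells, called against 1 input library, were analysed. The submitters' processing notes name mm10 and MACS2 2.1.0, but per the file headers the caller was MACS 1.4.2, with a p cutoff of 1e-05 and at most 1 tag per position, which limits counts in dense peaks. No aligner is named in the sources used here. Per peak, the authors deposited raw tag counts and a score, 10 times -log10 p. They also deposited a ratio (fold enrichment over local input) and a percent false discovery rate.

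Peaks were joined to RefSeq genes and promoter windows of GRCm38.p6 (1 bp overlap; Python 3.11.15, pandas 2.3.3), and all 8 members matched. A peak was shared when it lay over more than 1 coding gene; peaks 1 kb or less apart were joined for widths. The overlap rule was tested on made-up peaks at 200 genes. Intervals cover counting error only and no variation between cultures, because there is 1 library of each kind. Members, lists, motifs and tests were chosen with earlier results of these data known. Genes named beside the members are the highest 2 by fold and the unmarked genes of each list, and the unmarked markers; 3 marked markers were named after their values were seen, and some unmarked genes are not reported here. Alternatives were other windows, thresholds, overlap rules, joining gaps and ranking measures.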

Additional observations from a re-analysis of the deposited data

How the results depend on the processing

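The count of 8 marked members was the same with the gene alone, with 5 kb either side, with a -log10 p of at least 10, with a fold of at least 10, or when the summit itself had to fall in the window. In these settings the share over all coding genes was, in order, 60.8%, 64.1%, 60.2%, 59.2% and 60.6%. The member count was 7 with peaks over 1 coding gene only, without Nr1h3. It was 6 with peaks within 1 kb of a listed start, without Nr1h3 and without Sqle, for which no start is listed. The share over all coding genes was 46.4% in both. The count over the 89 pathway genes ranged from 56 (at listed starts, which only 66 of the 89 have) to 78 (5 kb either side), where the share over all coding genes was 46.4% and 64.1%. A false discovery rate of at most 1% left every peak in, since the highest is 0.32%, and so tests nothing. Of 16 other widths, 15 were the same and that of Hmgcs1 fell to 4435 bp with peaks not joined. All 30 other ranks of the members moved, where moved means outside the exact 95% binomial interval of the main rank over 13462 marked coding genes. That interval is narrow and holds no error between cultures, so small shifts count. Hmgcs1, from 98.96% to 99.14% among genes with no shared peak, is 1 of them. Some of the 30 used the score, which does not rank these peaks. Srebf2 stood above 26.4% of marked coding genes by fold but 80.4% by tags per kb, Insig1 above 45.6% and 83.75%, and Hmgcs1 above 98.96% and 56.1%, so fold alone does not order these genes. Nr1h2 and Nr1h3 have a shared peak and could not be ranked among the 9288 genes without one. No paired analysis was possible because there is 1 library of each kind; for the same reason no replicate could be left out.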

Other observations

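The liver X receptor motif GGTTACNNNNGGTCA lay in the promoter window of 5 further coding genes, named here after their values were seen. Fasn, which encodes fatty acid synthase, a known target of these receptors, had its start in a peak with a fold of 35.7. Acsl3, which encodes an enzyme that activates fatty acids, had 58.6, higher than Srebf1 at its downstream start (17.8) and Abca1 (32.6). The Acsl3 peak also lay over another coding gene, whereas those of Srebf1 and Abca1 did not. Prrg4 had 29.7, and both listed starts of Tmem150c, which share a peak, had 18.8. The start of Haao, which encodes an enzyme of tryptophan breakdown, lay in no peak. In all, 7 of the 8 starts with the motif lay inside a peak, against 55.3% of coding starts. The 8 starts include 2 overlapping windows of 1 gene, the motif was written with 2 of these promoters in view, and no test was made.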
